A study of Mus musculus with 18 samples.

Results

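The 40 genes described here encode the enzymes of glycolysis, of glycogen synthesis and breakdown and of the pentose phosphate pathway, with the glucose carrier GLUT1, the lactate dehydrogenases and the proteins that admit pyruvate to the mitochondria. They were chosen by name, as rows of the expression files with at least 1 TPM (a share of all transcripts, corrected for gene length and scaled to a fixed total) in 3 or more libraries. All 40 names were found and all 40 passed that filter, out of 16718 genes tested and 49845 rows per library. The cells were IMCD3, derived from mouse kidney (inner medullary collecting duct) and bearing primary cilia, and RNA of 18 libraries was sequenced.

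There were 6 groups of 3 libraries. IMCD3 cells without Ift140 (Ift140KO) were kept under fluid flow or static, cells without Dync2h1 (Dync2h1KO) likewise, and wild-type cells (WT) likewise. Flow was 0.7 dyne/cm2 for 3 h in microslide chambers. Ift140 encodes a part of the transport complex that moves cargo back from the tip of the cilium, and Dync2h1 encodes the heavy chain of the motor that drives this transport. The line came from a mouse with the transgene that the labels call Tg(SV40E)bri/7, so all 6 groups share the early region of SV40. Nothing in the labels tells if replicates came from distinct cultures or if a knockout line is 1 clone, so p-values measure only the spread between these libraries, which may be technical.

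Glycolysis splits glucose into pyruvate through a chain of cytosolic enzymes, with hexokinase, phosphofructokinase and pyruvate kinase as its regulated steps, and lactate dehydrogenase turns pyruvate into lactate when it does not enter the mitochondria. The oxidative branch of the pentose phosphate pathway draws off glucose phosphate to form NADPH, and glycogen stores glucose units that glycogen phosphorylase releases. The inner medulla of the kidney is poorly supplied with oxygen and is known for its reliance on glycolysis. Many glycolytic genes are textbook targets of HIF, the transcription factor of the hypoxia response, whose recognition core is ACGTG, and several pentose phosphate genes are known targets of NRF2, the transcription factor of the oxidant response.

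The promoters of 5 members that the results turn on are shown here as windows of 300 bases, 250 before and 50 after the transcription start, 5′ to 3′ on the gene's strand, from RefSeq on GRCm38.p6. Hk2 (chr6:82774405-82774704, minus strand) encodes hexokinase 2 and fell under flow, and capitals mark ACGTG on either strand at -226 and -52 relative to the start. Ldha (chr7:46845554-46845853, plus strand) encodes the A subunit of lactate dehydrogenase and was higher in the knockout lines, and its capitals mark 3 runs that hold ACGTG, of which 2 hold CACGTG. Pgk1 (chrX:106186850-106187149, plus strand) encodes phosphoglycerate kinase, with ACGTG at -150 and -131. Eno2 (chr6:124769624-124769923, minus strand) encodes the gamma enolase and had the largest falls under flow of all members, and its window holds none of the motifs searched. G6pdx (chrX:74428831-74429130, minus strand) encodes glucose phosphate dehydrogenase, the entry to the pentose phosphate pathway, and its capitals mark the antioxidant response element core TGACNNNGC, read on the opposite strand, at -57, while the ACGTG that this window also holds, at 29, is left in lower case.
Hk2: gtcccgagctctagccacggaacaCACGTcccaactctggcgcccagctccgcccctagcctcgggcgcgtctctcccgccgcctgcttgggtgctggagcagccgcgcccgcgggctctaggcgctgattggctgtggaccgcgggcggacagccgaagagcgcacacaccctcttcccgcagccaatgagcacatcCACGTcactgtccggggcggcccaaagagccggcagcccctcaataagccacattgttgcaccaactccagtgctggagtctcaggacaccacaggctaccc
Ldha: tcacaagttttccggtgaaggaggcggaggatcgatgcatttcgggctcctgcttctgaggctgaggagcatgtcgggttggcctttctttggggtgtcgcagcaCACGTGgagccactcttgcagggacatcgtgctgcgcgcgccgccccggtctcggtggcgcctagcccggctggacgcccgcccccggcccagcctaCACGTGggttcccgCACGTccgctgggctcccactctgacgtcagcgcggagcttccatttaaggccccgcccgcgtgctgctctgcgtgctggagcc
Pgk1: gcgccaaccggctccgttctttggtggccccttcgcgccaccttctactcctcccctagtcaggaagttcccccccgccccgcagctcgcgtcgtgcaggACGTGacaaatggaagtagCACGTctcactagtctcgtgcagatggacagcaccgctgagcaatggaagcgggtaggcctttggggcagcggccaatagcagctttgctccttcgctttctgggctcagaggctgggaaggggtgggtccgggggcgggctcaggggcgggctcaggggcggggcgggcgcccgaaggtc
Eno2: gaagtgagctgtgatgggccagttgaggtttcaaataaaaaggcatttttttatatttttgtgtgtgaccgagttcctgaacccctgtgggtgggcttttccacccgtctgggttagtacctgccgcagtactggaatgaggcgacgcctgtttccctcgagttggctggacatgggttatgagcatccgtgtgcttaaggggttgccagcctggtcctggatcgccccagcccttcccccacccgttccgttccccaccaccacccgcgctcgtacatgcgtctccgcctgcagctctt
G6pdx: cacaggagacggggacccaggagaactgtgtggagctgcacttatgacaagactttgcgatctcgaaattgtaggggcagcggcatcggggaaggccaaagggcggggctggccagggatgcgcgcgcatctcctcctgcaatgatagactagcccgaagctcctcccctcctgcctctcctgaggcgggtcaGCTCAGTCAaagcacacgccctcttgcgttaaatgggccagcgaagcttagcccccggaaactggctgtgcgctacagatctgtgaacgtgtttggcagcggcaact

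Windows of all 40 members were found in the RefSeq table, 59 windows in all, since some genes have more than 1 start. ACGTG, searched on both strands, stood in at least 1 window of 21 of the 40 members (52.5%), against 21.8% of 27025 genes in the table and 29.2% of the 9862 tested genes that have a window there. These shares are per gene, and a gene with more windows has more places for a match. The table holds 32851 windows, of which 19.6% held ACGTG, and the share of the members' 59 windows was not counted. The E box CACGTG, which contains ACGTG, stood in 5 members (12.5%), against 8.1% of the genes in the table and 11.7% of the tested genes. TGACNNNGC stood in 6 members (15.0%), against 14.0% and 17.0%. A match is a description of the letters and not a bound site, and the absence of a match says only that these letters are not in the window.

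Before the members, the labels were read against the 2 knocked-out genes. Ift140 stood at 7.65, 8.53 and 15.4 TPM in Ift140KO cells under flow and at 6.26, 6.44 and 7.45 TPM in static ones, against 16.5, 15.1 and 18.5 TPM in WT cells under flow and 16.5, 19.5 and 18.8 TPM in static ones. The library labelled Ift140KO flow replicate 3 thus lay near the WT level, and it also had 16076 rows of at least 1 TPM, against 14849 and 15001 in the others of its group. Dync2h1 stood between 7.07 and 15.4 TPM in the 6 Dync2h1KO libraries, against 28.1 to 45.4 TPM in the 6 WT libraries. Of 18 markers of collecting duct epithelium 9 passed the filter, with Krt8, Krt18, Epcam, Pax8 and Cdh1 present and the water channel Aqp2 at or near 0. Markers of proximal tubule summed to 72.7 to 121 TPM in Ift140KO cells under flow, 83.8 to 91.8 TPM in static Ift140KO cells, 8.08 to 10.3 TPM in Dync2h1KO cells under flow and 11.3 to 13.3 TPM in static Dync2h1KO cells, against 372 to 453 TPM in WT cells under flow and 435 to 438 TPM in static WT cells. In WT cells this sum was mostly Cubn, while Slc34a1, Slc22a6, Kap and Miox were listed at 0 throughout. In Ift140KO cells it was mostly Lrp2, which went the other way from Cubn. Static means were 3.28 TPM for Cubn against 410 TPM in WT cells, and 80.3 TPM for Lrp2 against 21.8 TPM. Under flow they were 5.16 against 378 TPM for Cubn and 83.3 against 17.9 TPM for Lrp2. The lower sum in Ift140KO cells is thus not a fall of the markers together. No endothelial marker of 6 passed the filter, 3 of 7 leukocyte markers and 2 of 8 fibroblast markers did, and Cd3e and Lum were listed at 0. The fibroblast markers summed to 18.6 to 22.1 TPM in Ift140KO cells under flow, 15.6 to 23.3 TPM in static Ift140KO cells, 0.789 to 0.944 TPM in Dync2h1KO cells under flow and 0.394 to 1.36 TPM in static Dync2h1KO cells, against 18.2 to 22.3 TPM in WT cells under flow and 18.8 to 24.5 TPM in static WT cells. Acta2, smooth muscle actin, made up most of this sum outside the Dync2h1KO line. The collecting duct markers summed to 3449 to 4091 TPM in Ift140KO cells under flow, against 2904 to 3193 TPM static, to 3802 to 4014 TPM in Dync2h1KO cells under flow, against 2711 to 2809 TPM static, and to 3186 to 3269 TPM in WT cells under flow, against 2072 to 2189 TPM static. The part of these differences between lines and under flow in the results below was not tested. In bulk RNA, fewer cells of a type and less RNA per cell cannot be told apart.

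Levels ranged widely among the members. Averaged over all 18 libraries, Pkm (pyruvate kinase) was the highest at 2255 TPM, and Pdk4, an inhibitory kinase of pyruvate dehydrogenase, the lowest at 0.717 TPM. Together the 40 genes made up 0.817% to 0.848% of all TPM in Ift140KO cells under flow and 0.864% to 0.997% in static Ift140KO cells. In Dync2h1KO cells they made up 0.861% to 0.930% under flow and 0.897% to 1.05% static, against 0.737% to 0.782% and 0.720% to 0.765% in WT cells. After scaling of the libraries to each other, the members summed to 8175 ± 759 TPM in Ift140KO cells under flow, 8726 ± 149 TPM in static Ift140KO cells, 9769 ± 125 TPM in Dync2h1KO cells under flow and 9660 ± 137 TPM in static Dync2h1KO cells, against 7471 ± 248 TPM in WT cells under flow and 7452 ± 52.5 TPM in static WT cells (SD, n = 3 each). All libraries of static Ift140KO cells and of both Dync2h1KO groups lay above all WT libraries in this sum.

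All levels that follow are scaled TPM per library, and all changes are log2 differences of scaled TPM + 1 with their SE, from limma with Benjamini-Hochberg adjustment over all 16718 genes; a gene passed at an adjusted p under 0.05. Under flow against static, 4 members rose and 7 fell in Ift140KO cells, where 17.5% of all genes passed, 9.21% rising and 8.27% falling. In Dync2h1KO cells 3 rose and 6 fell, where 19.0% of all genes passed (10.8% rising, 8.15% falling), and in WT cells 4 rose and 4 fell, where 20.5% passed (10.2% rising, 10.3% falling). The medians of the members' changes under flow were -0.072 in Ift140KO, -0.002 in Dync2h1KO and -0.016 in WT cells, beside medians over all genes of 0.006, 0.015 and -0.014. As shares of the 40, 27.5% passed in Ift140KO, 22.5% in Dync2h1KO and 20.0% in WT cells, and 17.5%, 15.0% and 10.0% fell. No test was made of the members against the other genes. The 4 that rose in Ift140KO cells include Pdk4 and Pygm, which reached 1 TPM in flow libraries only and so entered the test through the condition where they are high. The same 4 members passed in each of the 3 flow comparisons, Pgd by rising and Eno2, Hk2 and Pygb by falling. None of these 12 calls was lost when any single library was left out. The libraries of the 3 comparisons are distinct, but all groups share a single estimate of the spread of each gene. The share of all genes that passed in all 3 was not counted, so the 4 members have no background to be read against. Without the Ift140KO flow replicate 3 library, 3 members rose and 5 fell in Ift140KO cells. With no scaling of the libraries the counts were 1 risen and 10 fallen in Dync2h1KO cells and 2 and 4 in WT cells, and with quantile normalisation 2 and 9 in Dync2h1KO cells and 3 and 5 in WT cells.

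**Figure D1:**
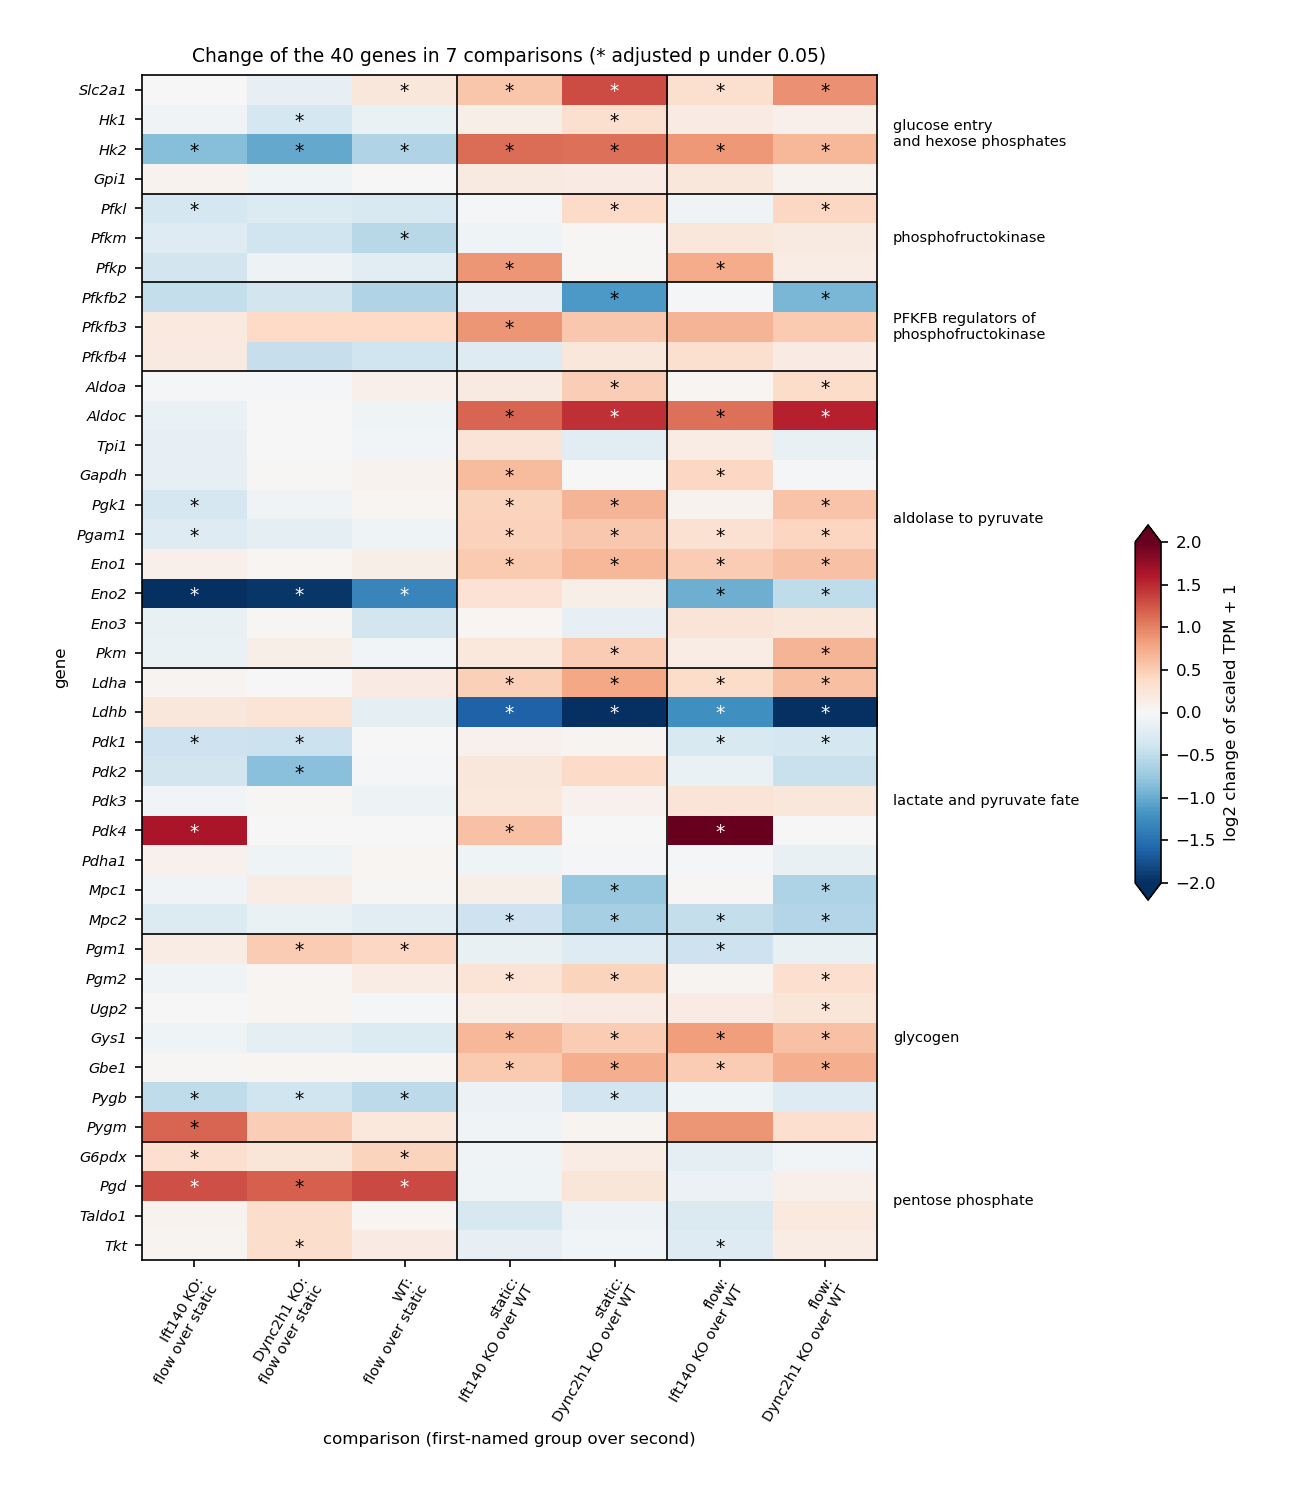
Heat map of the change of each of the 40 members (rows, grouped by role) in the flow and knockout comparisons (columns), as log2 differences of scaled TPM + 1, with stars on changes that passed at an adjusted p under 0.05 and colours that end at 2 in either direction. Pgd is raised and Eno2, Hk2 and Pygb are lowered in all 3 flow columns, and the knockout columns hold more rises than falls.

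The largest rise under flow that all 3 genotypes had was that of Pgd (chromosome 4, 149149991 to 149166771 on GRCm38), which encodes phosphogluconate dehydrogenase, the second NADPH-forming enzyme of the oxidative branch. Pgd stood at 101, 83.8 and 111 TPM in Ift140KO cells under flow, against 45.8, 41.4 and 32.6 TPM in static ones. In Dync2h1KO cells it stood at 112, 110 and 121 TPM under flow, against 45.9, 48.3 and 55.0 TPM in static culture. WT cells had 109, 93.5 and 118 TPM under flow, against 38.6, 44.4 and 42.7 TPM in static culture. Every flow library lay above every static library of its genotype. The change was 1.29 (SE 0.13, adjusted p = 5.32e-06) in Ift140KO cells, 1.19 (SE 0.13, adjusted p = 1.01e-05) in Dync2h1KO cells and 1.32 (SE 0.13, adjusted p = 2.98e-06) in WT cells. The responses did not differ detectably: that of Ift140KO minus that of WT was -0.03 with a 95% interval of -0.42 to 0.35, and that of Dync2h1KO minus that of WT was -0.13 with an interval of -0.52 to 0.25.

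G6pdx, whose enzyme feeds the same branch and whose promoter is printed above, moved the same way by a smaller amount. It stood at 52.6, 47.7 and 50 TPM in Ift140KO cells under flow, against 38.1, 37.6 and 43.6 TPM in static ones. In Dync2h1KO cells it had 49.5, 60.6 and 56.5 TPM under flow, against 44.8, 51.4 and 43.6 TPM in static culture. WT cells had 55.4, 56.7 and 60.1 TPM under flow, against 38.8, 45.7 and 41.4 TPM in static culture. Flow and static libraries were separate in Ift140KO and WT cells and overlapped in Dync2h1KO cells. The change passed in WT cells (0.45, SE 0.09, adjusted p = 0.00278) and in Ift140KO cells (0.33, SE 0.09, adjusted p = 0.0227), and was 0.25 (SE 0.09) with adjusted p = 0.0767 in Dync2h1KO cells. In Ift140KO cells the call was lost without static replicate 1, static replicate 2 or flow replicate 1, with adjusted p up to 0.0880.

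The 2 members of the non-oxidative branch that were measured, Tkt (transketolase) and Taldo1 (transaldolase), shuffle sugar phosphates between the pathways. Tkt stood at 526, 547 and 549 TPM in Dync2h1KO cells under flow, against 393, 428 and 450 TPM in static ones, with no overlap. That rise was 0.35 (SE 0.08, adjusted p = 0.00636), with an adjusted p of 0.0515 without Dync2h1KO static replicate 1. Tkt changed by 0.05 (SE 0.08, adjusted p = 0.731) in Ift140KO cells and by 0.16 (SE 0.08, adjusted p = 0.202) in WT cells, and Taldo1 passed in no comparison. The summed level of the 4 pentose phosphate genes was 694 ± 74.9 TPM in Ift140KO cells under flow, against 598 ± 23.9 TPM static. In Dync2h1KO cells it was 895 ± 23.8 TPM under flow, against 664 ± 33.2 TPM static, and in WT cells 815 ± 39.0 TPM under flow, against 679 ± 13.2 TPM static (SD, n = 3 each). Within that sum the part of Pgd was 14.5%, 12.8% and 13.1% under flow in Ift140KO, Dync2h1KO and WT cells, against 6.66%, 7.48% and 6.19% in their static cultures.

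Eno2 (chromosome 6, 124760053 to 124769673) had the largest fall under flow of the 40 members in every genotype. Its enzyme, gamma enolase, is best known from neurons and carries out the same step as the ubiquitous alpha enolase Eno1. Eno2 stood at 1.21, 1.78 and 2.60 TPM in Ift140KO cells under flow, against 15.2, 14.5 and 18.6 TPM in static ones. In Dync2h1KO cells it stood at 2.70, 2.79 and 3.21 TPM under flow, against 15.3, 16.2 and 11.1 TPM in static culture. WT cells had 4.26, 4.52 and 4.87 TPM under flow, against 12.6, 12.8 and 13.2 TPM in static culture. No flow library overlapped a static one, and among the flow libraries all 3 of Ift140KO and all 3 of Dync2h1KO lay below all 3 of WT. The fall was -2.60 (SE 0.17, adjusted p = 4.48e-08) in Ift140KO cells, -1.95 (SE 0.17, adjusted p = 9.63e-07) in Dync2h1KO cells and -1.32 (SE 0.17, adjusted p = 4.38e-05) in WT cells. Because 1 was added to each value before the log, these numbers understate the change of a gene near 1 TPM.

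The difference of the Eno2 response between Ift140KO and WT cells was -1.28 (SE 0.24, adjusted p = 0.0366), with a 95% interval of -1.78 to -0.78. It lost the threshold when any single library of its 4 groups other than Ift140KO flow replicate 3 was left out, with values between -1.36 and -1.11 and adjusted p up to 0.115. For Dync2h1KO against WT the difference was -0.62 (SE 0.24, adjusted p = 0.374, interval -1.13 to -0.12). Eno1, by contrast, changed by 0.10 (SE 0.09, adjusted p = 0.50) in Ift140KO, 0.03 (SE 0.09, adjusted p = 0.854) in Dync2h1KO and 0.11 (SE 0.09, adjusted p = 0.461) in WT cells under flow. Eno3, the muscle enolase, passed in no comparison.

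Hk2 (chromosome 6, 82725025 to 82774454), the inducible hexokinase that traps glucose in the cell, fell under flow in every genotype. It stood at 34.5, 30.1 and 40.9 TPM in Ift140KO cells under flow, against 65.3, 59.4 and 66.5 TPM in static ones. In Dync2h1KO cells it stood at 28.9, 30.6 and 31.7 TPM under flow, against 59.6, 61.2 and 68.6 TPM in static culture. WT cells had 18, 17.3 and 21.3 TPM under flow, against 28.7, 26.4 and 31.9 TPM in static culture. Flow and static libraries were separate in all 3 genotypes. The change was -0.85 (SE 0.11, adjusted p = 7.47e-05) in Ift140KO, -1.03 (SE 0.11, adjusted p = 9.99e-06) in Dync2h1KO and -0.60 (SE 0.11, adjusted p = 0.00116) in WT cells. The responses of the knockout lines minus that of WT were -0.25 (adjusted p = 0.755, interval -0.58 to 0.08) for Ift140KO and -0.43 (adjusted p = 0.340, interval -0.76 to -0.10) for Dync2h1KO. Hk1, the constitutive hexokinase, stood at 54.5, 66.0 and 60.2 TPM in Dync2h1KO cells under flow, against 68.2, 77.0 and 86.0 TPM in static ones, without overlap. It fell there by 0.35 on the log2 scale (SE 0.10, adjusted p = 0.0251), a call lost without Dync2h1KO static replicate 2 or 3 or flow replicate 1 or 3 with adjusted p up to 0.117. Hk1 was also among the members that rose in static Dync2h1KO cells against static WT cells, which had 57.0, 61.6 and 66.5 TPM.

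Pygb (chromosome 2, 150786735 to 150831758), the brain form of glycogen phosphorylase, was the third gene to fall in each genotype. It stood at 79.1, 102 and 75.7 TPM in Ift140KO cells under flow, against 115, 124 and 125 TPM in static ones. In Dync2h1KO cells it stood at 73.2, 80.6 and 73.7 TPM under flow, against 99.6, 93.4 and 108 TPM in static culture. WT cells had 89.2, 94.8 and 88.2 TPM under flow, against 130, 130 and 134 TPM in static culture. The groups did not overlap in any genotype. The change was -0.51 (SE 0.09, adjusted p = 0.00149) in Ift140KO, -0.40 (SE 0.09, adjusted p = 0.00724) in Dync2h1KO and -0.53 (SE 0.09, adjusted p = 0.000824) in WT cells. The knockout responses minus that of WT were 0.02 (interval -0.26 to 0.31) and 0.13 (interval -0.15 to 0.41) for Ift140KO and Dync2h1KO.

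**Figure D2:**
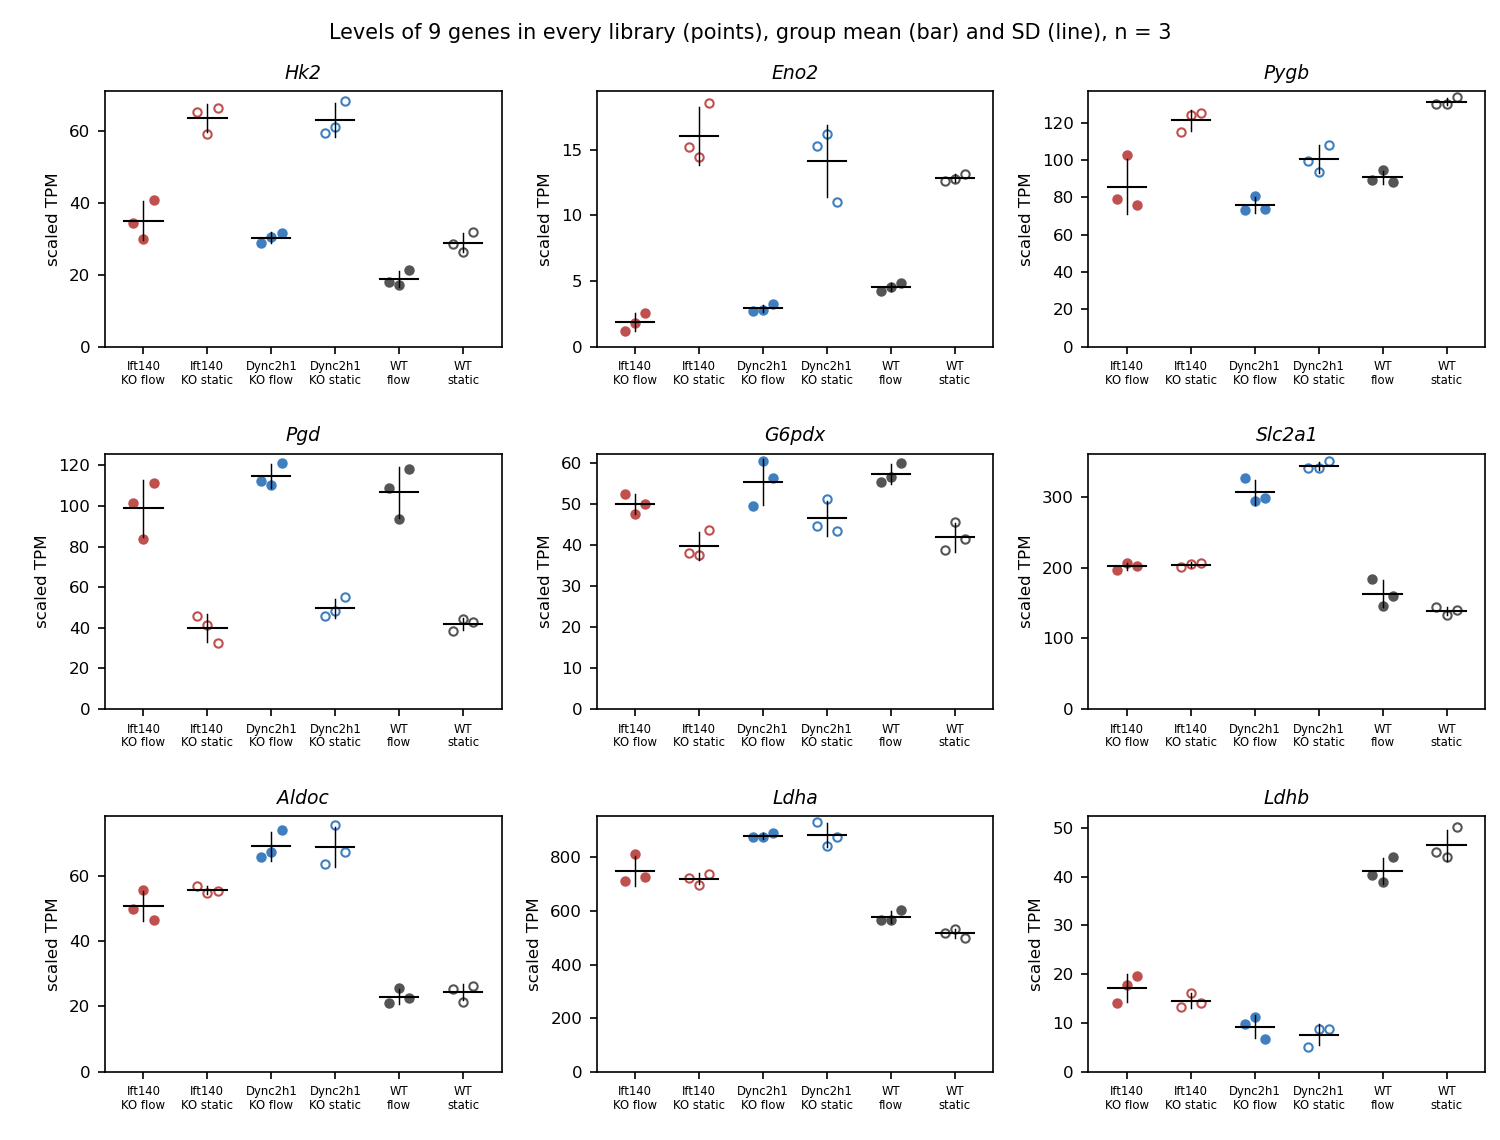
Scaled TPM of 9 members in each of the 18 libraries (points) with the mean (bar) and SD (line) of each group, the flow group left of the static group of each genotype. Pgd and G6pdx are higher and Hk2, Eno2 and Pygb lower in flow groups, while Slc2a1, Aldoc, Ldha and Ldhb separate by genotype.

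Other members passed under flow in 1 or 2 genotypes only, and whether the responses differ was tested for each. Pdk1, the pyruvate dehydrogenase kinase of the hypoxia response, stood at 119, 104 and 100 TPM in Ift140KO cells under flow, against 144, 144 and 143 TPM in static ones. It stood at 97.8, 106 and 109 TPM in Dync2h1KO cells under flow, against 160, 126 and 136 TPM in static ones, and in WT cells at 138, 129 and 133 TPM under flow, against 131, 138 and 135 TPM in static culture. Flow lowered Pdk1 below every static library in the knockout lines, by -0.42 (SE 0.08, adjusted p = 0.00246) in Ift140KO and -0.42 (SE 0.08, adjusted p = 0.00193) in Dync2h1KO cells, while the WT groups overlapped (-0.01, SE 0.08, adjusted p = 0.935). The differences between responses were -0.40 (SE 0.12, adjusted p = 0.291, interval -0.65 to -0.15) for Ift140KO minus WT and -0.41 (SE 0.12, adjusted p = 0.184, interval -0.66 to -0.16) for Dync2h1KO minus WT, so neither passed over all genes.

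Pgm1, a phosphoglucomutase that links glucose phosphate to glycogen, stood at 29.1, 34.3 and 32.9 TPM in Dync2h1KO cells under flow, against 23.0, 22.8 and 20.7 TPM in static ones. It stood at 40, 29.8 and 38.0 TPM in WT cells under flow, against 25.5, 26.5 and 27.7 TPM in static ones. Flow libraries lay above static ones in both lines, with changes of 0.52 (SE 0.12, adjusted p = 0.00821) and 0.41 (SE 0.12, adjusted p = 0.0269), and the change in Ift140KO cells was 0.14 (SE 0.12, adjusted p = 0.482). In WT cells the call was lost without static replicate 1 or 2 or flow replicate 1 or 3, with adjusted p up to 0.113. The symbols Pgm1 and Pgm2 have been exchanged between releases of the mouse annotation, and in GENCODE vM21 Pgm1 lies on chromosome 4 and Pgm2 on chromosome 5. Phosphofructokinase, the committed step of glycolysis, has 3 genes. Pfkm stood at 28.7, 26.0 and 27.2 TPM in WT cells under flow, against 42.1, 37.5 and 42.2 TPM in static ones, and Pfkl at 323, 323 and 243 TPM in Ift140KO cells under flow, against 411, 384 and 334 TPM in static ones. In both cases the flow libraries lay below the static ones, and Pfkm fell by 0.55 on the log2 scale (SE 0.17, adjusted p = 0.0267) and Pfkl fell by 0.35 (SE 0.11, adjusted p = 0.0451). Pfkl also lay lower under flow without overlap in WT cells (293 to 329 against 343 to 408 TPM) and Dync2h1KO cells (378 to 433 against 467 to 542 TPM). Pfkm did so in Dync2h1KO cells (28.55 to 35.25 against 37.7 to 45.4 TPM), while its Ift140KO groups overlapped. None of these further differences passed. Pfkm lost its call without WT static replicate 1 or 3 or WT flow replicate 2 or 3 (adjusted p up to 0.0827), and Pfkl without Ift140KO static replicate 1 or 2 or flow replicate 3 (adjusted p up to 0.168).

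Slc2a1, which encodes the glucose carrier GLUT1, rose in WT cells under flow by 0.22 on the log2 scale (SE 0.07, adjusted p = 0.0407), and leaving out WT flow replicate 1 gave 0.13 with adjusted p = 0.188. The call was also lost without WT flow replicate 3 or any static WT library. In Ift140KO cells Pgk1 fell by 0.34 (SE 0.10, adjusted p = 0.0341) and Pgam1 (phosphoglycerate mutase) by 0.26 (SE 0.07, adjusted p = 0.0195). The Pgk1 call was lost without Ift140KO static replicate 1 or 3 or flow replicate 3 (adjusted p up to 0.133), and that of Pgam1 without static replicate 3 (adjusted p = 0.0826). Pygm, the muscle glycogen phosphorylase, had 4.66, 1.01 and 1.82 TPM in Ift140KO cells under flow, against 0.397, 0.548 and 0.319 TPM in static ones. It had 1.59, 1.53 and 0.577 TPM in Dync2h1KO cells under flow, against 0.382, 0.738 and 0.558 TPM in static ones, and 1.11, 0.663 and 0.456 TPM in WT cells under flow, against 0.156, 0.909 and 0.50 TPM in static ones. No static library reached 1 TPM, so Pygm passed the filter through flow libraries alone and its flow values are given with no test. Pdk2, another pyruvate dehydrogenase kinase, stood at 0.809, 0.885 and 0.246 TPM in Dync2h1KO cells under flow, against 1.84, 1.18 and 2.88 TPM in static ones, and fell there by 0.83 (SE 0.24, adjusted p = 0.0255). That call was lost without Dync2h1KO static replicate 1 or 3 or flow replicate 3, with adjusted p up to 0.122.

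Pdk4 exceeded 0.0193 TPM in the Ift140KO line only. It stood at 2.60, 4.72 and 3.96 TPM in Ift140KO cells under flow, against 0.855, 0.450 and 0.283 TPM in static ones. It was listed at 0 in all 6 Dync2h1KO libraries and at no more than 0.0193 TPM in the 6 WT libraries. All 3 Ift140KO flow libraries lay above all others. Because Pdk4 passed the filter on low values only through those 3 libraries, its levels are a description with no test, and no fold is given against the groups listed at 0.

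Between responses, 1 member rose and 1 fell for Ift140KO minus WT, where 0.227% of all genes passed (0.0778% rising, 0.150% falling), and these were Pdk4 and Eno2. Pdk4 is counted but not read as a result, since the filter admitted it only through the Ift140KO flow libraries. For Dync2h1KO minus WT none of 40 passed in limma, where 0.485% of all genes passed (0.179% rising, 0.305% falling), and 5 members (12.5%) had an unadjusted p under 0.05, where 9.78% of all genes did. For Dync2h1KO minus Ift140KO 1 member fell, again Pdk4, where 0.108% of all genes passed (0.0598% rising, 0.0479% falling). That call was lost with a pseudocount of 0.1, with no other groups in the fit, with the replicate block and without each of 6 single libraries in turn, and Pdk4 was not tested under the mean filter. These comparisons share libraries with each other and with the flow comparisons.

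The knockout lines differed from WT in more members than flow did. In static culture 14 members rose and 2 fell in Ift140KO cells, where 18.1% of all genes passed (8.97% rising, 9.08% falling), and 14 rose and 5 fell in Dync2h1KO cells, where 27.6% passed (13.5% rising, 14.1% falling). Under flow 11 rose and 6 fell in Ift140KO cells, where 15.3% passed (7.73% rising, 7.52% falling), and 14 rose and 6 fell in Dync2h1KO cells, where 30.1% passed (16.1% rising, 14.0% falling). The members' median change was 0.176 in Ift140KO and 0.155 in Dync2h1KO cells in static culture, and 0.157 and 0.167 under flow, beside medians over all genes between -0.007 and 0.013. Pdk4 is among those that rose in Ift140KO cells in both conditions. With no scaling of the libraries, 11 rose and 3 fell in Ift140KO cells under flow, and 9 rose and 9 fell in Dync2h1KO cells under flow, where quantile normalisation gave 10 and 8. Without Ift140KO flow replicate 3, 13 rose and 3 fell in Ift140KO cells under flow. The comparisons of the 2 lines share their WT libraries, so their values stand side by side below without being counted together.

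Slc2a1 (chromosome 4, 119108711 to 119137983), the gene of GLUT1, set the 3 lines apart. Ift140KO cells had 197, 207 and 203 TPM under flow and 201, 205 and 207 TPM in static culture. Dync2h1KO cells had 327, 294 and 298 TPM under flow and 342, 340 and 350 TPM in static culture. WT cells had 183, 146 and 160 TPM under flow and 144, 133 and 140 TPM in static culture. Every Dync2h1KO library was above every Ift140KO library, and every Ift140KO library above every WT library. In static culture the change against WT was 0.55 (SE 0.07, adjusted p = 8.8e-05) in Ift140KO and 1.30 (SE 0.07, adjusted p = 3.38e-09) in Dync2h1KO cells, and under flow it was 0.32 (SE 0.07, adjusted p = 0.00772) and 0.91 (SE 0.07, adjusted p = 2.13e-07).

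Hk2, at the levels given above, was higher than WT by 1.11 (SE 0.11, adjusted p = 6.08e-06) in static Ift140KO cells and by 1.10 (SE 0.11, adjusted p = 2.6e-06) in static Dync2h1KO cells. Under flow the changes were 0.86 (SE 0.11, adjusted p = 8.11e-05) in Ift140KO and 0.67 (SE 0.11, adjusted p = 0.000298) in Dync2h1KO cells. The flow libraries of the knockout lines, at 28.9 to 40.9 TPM, thus lay around or above the static WT libraries, at 26.4 to 31.9 TPM. Of the hexokinase transcripts of Hk1 and Hk2 together, Hk2 made up 35.6 ± 1.51% in Ift140KO cells under flow and 48.9 ± 2.04% in static ones. It made up 33.6 ± 1.66% in Dync2h1KO cells under flow and 45.1 ± 1.32% in static ones, and 25.1 ± 2.31% in WT cells under flow and 32.0 ± 1.78% in static ones (SD, n = 3 each).

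Among the phosphofructokinases, the platelet form Pfkp passed in the Ift140KO line and the liver form Pfkl in the Dync2h1KO line, and the 2 lines were not tested against each other. Pfkp stood at 100, 113 and 77.8 TPM in Ift140KO cells under flow and at 120, 123 and 127 TPM in static ones, against 71.2, 42.8 and 59.8 TPM in WT cells under flow and 74.5, 62.1 and 63.6 TPM in static ones. Its change was 0.88 (SE 0.16, adjusted p = 0.00137) in static Ift140KO cells and 0.75 (SE 0.16, adjusted p = 0.00527) under flow, with no overlap, and 0.02 and 0.14 (adjusted p = 0.939 and 0.551) in Dync2h1KO cells. Pfkl stood at 378, 433 and 421 TPM in Dync2h1KO cells under flow and at 476, 467 and 542 TPM in static ones, against 293, 303 and 329 TPM in WT cells under flow and 343, 390 and 408 TPM in static ones. Its change was 0.38 (SE 0.11, adjusted p = 0.0206) static and 0.41 (SE 0.11, adjusted p = 0.0124) under flow, and the static call was lost without WT static replicate 1 or Dync2h1KO static replicate 3 (adjusted p up to 0.0974). Pfkfb2, a kinase and phosphatase that sets the level of the activator of phosphofructokinase, stood at 4.12, 8.90 and 5.23 TPM in Dync2h1KO cells under flow and at 8.21, 9.07 and 6.37 TPM in static ones, against 11.5, 12.2 and 11.9 TPM in WT cells under flow and 20.0, 17.4 and 18.3 TPM in static ones. It was lower by -1.15 (SE 0.23, adjusted p = 0.00128) static and -0.92 (SE 0.23, adjusted p = 0.00595) under flow, without overlap. Pfkfb3, of the same family, stood at 5.59, 6.77 and 7.52 TPM in static Ift140KO cells, against 3.73, 2.38 and 3.37 TPM in static WT cells. It was higher there by 0.88 (SE 0.26, adjusted p = 0.0292), a call lost without WT static replicate 2 or 3 or Ift140KO static replicate 2 or 3 (adjusted p up to 0.116).

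Of the 10 genes from aldolase to pyruvate, 5 rose and none fell in static Ift140KO cells, and 6 rose and none fell in static Dync2h1KO cells; under flow 4 rose and 1 fell in Ift140KO and 6 rose and 1 fell in Dync2h1KO cells. Of all genes 8.97% and 13.5% rose in the static comparisons and 7.73% and 16.1% in those under flow. The largest change was that of Aldoc (chromosome 11, 78322968 to 78327781), the brain form of aldolase. Aldoc stood at 49.8, 55.6 and 46.6 TPM in Ift140KO cells under flow and at 56.9, 54.6 and 55.3 TPM in static ones. It stood at 65.7, 67.3 and 74.0 TPM in Dync2h1KO cells under flow and at 63.6, 75.5 and 67.2 TPM in static ones, against 20.9, 25.5 and 22.5 TPM in WT cells under flow and 25.3, 21.4 and 26.3 TPM in static ones. All knockout libraries were well above all WT libraries, and flow and static libraries of a line overlapped. The change was 1.16 (SE 0.10, adjusted p = 1.02e-06) in static Ift140KO and 1.46 (SE 0.10, adjusted p = 3.09e-08) in static Dync2h1KO cells, and 1.11 (SE 0.10, adjusted p = 1.71e-06) and 1.55 (SE 0.10, adjusted p = 1.55e-08) under flow.

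Aldoa, the main aldolase of these cells, stood at 1400, 1505 and 1408 TPM in Dync2h1KO cells under flow and at 1459, 1449 and 1474 TPM in static ones, against 1043, 1120 and 1202 TPM in WT cells under flow and 979, 1072 and 1074 TPM in static ones. It was higher than WT by 0.49 (SE 0.08, adjusted p = 0.00022) static and 0.36 (SE 0.08, adjusted p = 0.00243) under flow, and did not pass in Ift140KO cells (0.18, adjusted p = 0.126 static and 0.04, adjusted p = 0.777 under flow). Pkm, the last enzyme of the chain, had 2941, 2943 and 2885 TPM in Dync2h1KO cells under flow and 2595, 2760 and 2693 TPM in static ones, against 1844, 1756 and 1853 TPM in WT cells under flow and 2041, 1811 and 1841 TPM in static ones. The groups did not overlap, with changes of 0.50 (SE 0.09, adjusted p = 0.000723) static and 0.69 (SE 0.09, adjusted p = 4.32e-05) under flow, and Pkm did not pass in Ift140KO cells. Gapdh, often used as an invariant control gene, stood at 258, 244 and 257 TPM in static Ift140KO cells, against 145, 168 and 175 TPM in static WT cells. Its rise there was 0.64 (SE 0.11, adjusted p = 0.000769), while the change in static Dync2h1KO cells was 0.01 (adjusted p = 0.971).

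Pgk1 was higher than WT by 0.44 (SE 0.10, adjusted p = 0.00703) in static Ift140KO and by 0.69 (SE 0.10, adjusted p = 0.000127) in static Dync2h1KO cells, at 234 to 278 TPM and 296 to 300 TPM, against 181 to 189 TPM in static WT cells. Pgam1 was higher by 0.47 (SE 0.07, adjusted p = 0.000365) and 0.54 (SE 0.07, adjusted p = 4.44e-05), at 518 to 597 TPM and 560 to 617 TPM, against 395 to 402 TPM. Eno1 was higher by 0.52 (SE 0.09, adjusted p = 0.000999) and 0.67 (SE 0.09, adjusted p = 5.36e-05), at 179 to 180 TPM and 192 to 203 TPM, against 117 to 134 TPM. For these 3 genes no static knockout library overlapped a static WT library. Against WT under flow, Pgk1 did not pass in Ift140KO cells (0.06, adjusted p = 0.727) and was higher in Dync2h1KO cells (0.57, adjusted p = 0.000599). Pgam1 and Eno1 were higher than WT under flow in both lines. Under flow Eno2 was the member of the chain that was lower in the knockout lines, by -0.98 (SE 0.17, adjusted p = 0.000906) in Ift140KO and -0.51 (SE 0.17, adjusted p = 0.0309) in Dync2h1KO cells. The Dync2h1KO call for Eno2 was lost without any single WT flow library or Dync2h1KO flow replicate 1 or 2, with adjusted p up to 0.0921. The summed level of the chain was 5100 ± 547 TPM in Ift140KO cells under flow and 5564 ± 142 TPM in static ones, 6233 ± 120.2 TPM in Dync2h1KO cells under flow and 6100 ± 113 TPM in static ones, against 4546 ± 169 TPM in WT cells under flow and 4590 ± 64.8 TPM in static ones (SD, n = 3 each).

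At the fate of pyruvate, both subunits of lactate dehydrogenase moved, in opposite directions. Ldha (chromosome 7, 46841475 to 46855627), the subunit that predominates in tissues making lactate, had 711, 814 and 726 TPM in Ift140KO cells under flow and 725, 698 and 738 TPM in static ones. It had 875, 875 and 892 TPM in Dync2h1KO cells under flow and 932, 842 and 877 TPM in static ones, against 566, 567 and 605 TPM in WT cells under flow and 519, 532 and 499 TPM in static ones. The lines did not overlap, with Dync2h1KO highest and WT lowest. The change against WT was 0.48 (SE 0.06, adjusted p = 0.000115) in static Ift140KO and 0.77 (SE 0.06, adjusted p = 3.98e-07) in static Dync2h1KO cells, and 0.37 (SE 0.06, adjusted p = 0.0011) and 0.60 (SE 0.06, adjusted p = 5.06e-06) under flow.

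Ldhb (chromosome 6, 142490249 to 142507957), the subunit that predominates in heart and other oxidative tissues, had 14, 17.8 and 19.7 TPM in Ift140KO cells under flow and 13.2, 16.2 and 14.1 TPM in static ones. It had 9.71, 11.3 and 6.71 TPM in Dync2h1KO cells under flow and 5.10, 8.78 and 8.79 TPM in static ones, against 40.3, 39.0 and 44.1 TPM in WT cells under flow and 45.1, 44.1 and 50.2 TPM in static ones. Here WT was highest and Dync2h1KO lowest, again without overlap of the lines. The change was -1.61 (SE 0.19, adjusted p = 2.92e-05) in static Ift140KO and -2.50 (SE 0.19, adjusted p = 1.3e-07) in static Dync2h1KO cells, and -1.22 (SE 0.19, adjusted p = 0.000411) and -2.06 (SE 0.19, adjusted p = 9.74e-07) under flow. Flow changed neither subunit past the threshold in any line. Ldhb made up 2.24% of Ldha and Ldhb together in Ift140KO cells under flow and 1.98% in static ones, and 1.04% in Dync2h1KO cells under flow and 0.856% in static ones, against 6.62% in WT cells under flow and 8.26% in static ones.

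**Figure D3:**
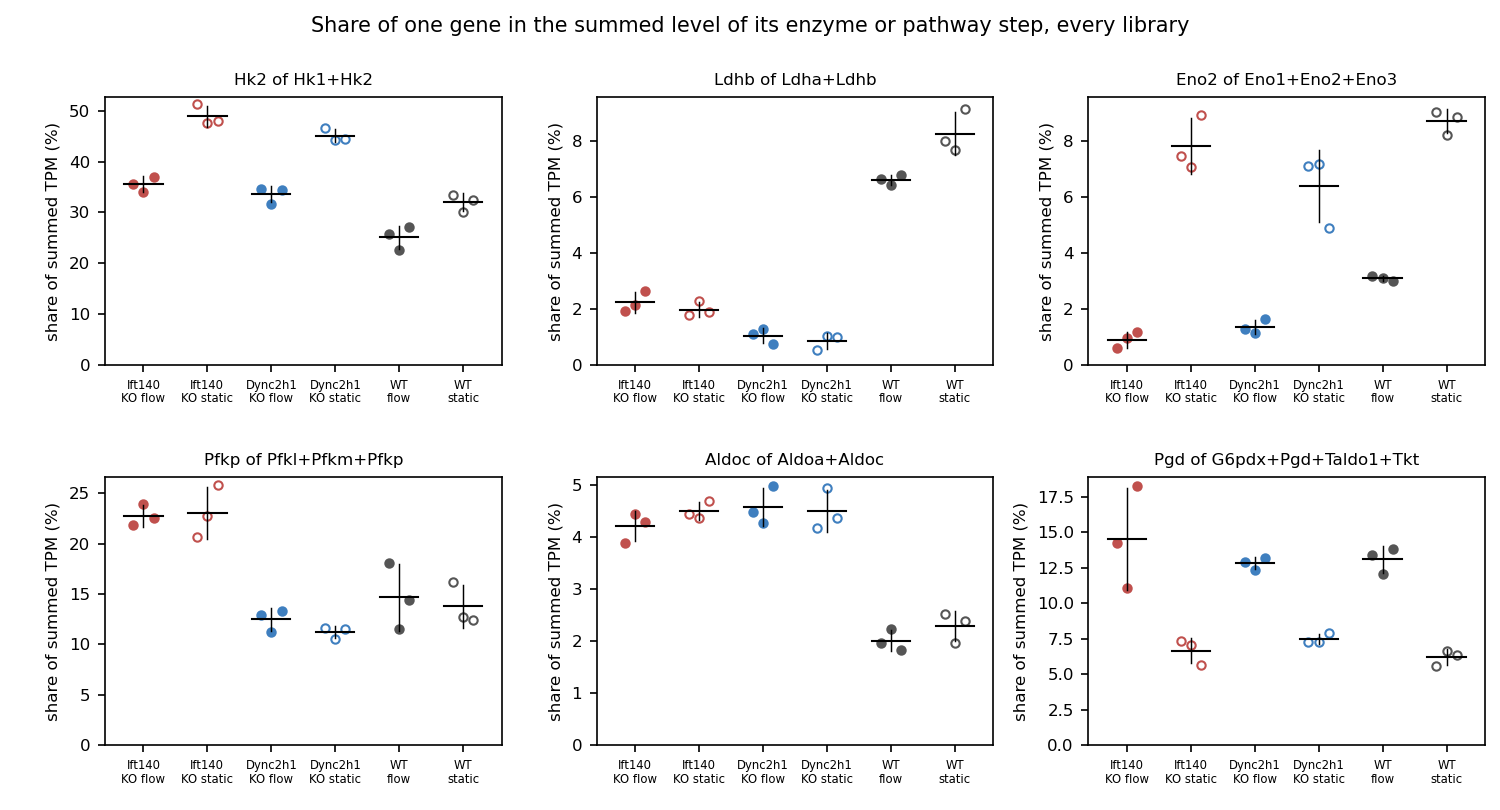
Share in percent of 1 gene within its isozyme group or pathway branch in each of the 18 libraries (points, with the mean as a bar and the SD as a line for each group), for Hk2, Ldhb, Eno2, Pfkp, Aldoc and Pgd, flow left of static in each genotype. Hk2 and Eno2 shares are lower and the Pgd share is higher under flow, while the Ldhb share is 0.856% to 2.24% in group means of the knockout lines and 6.62% to 8.26% in WT.

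The mitochondrial pyruvate carrier is a complex of Mpc1 and Mpc2. Mpc2 stood at 51.0, 47.4 and 38.5 TPM in Ift140KO cells under flow and at 56.6, 53.3 and 55.3 TPM in static ones. It stood at 43.6, 44.7 and 38.6 TPM in Dync2h1KO cells under flow and at 45.7, 51.2 and 42.4 TPM in static ones, against 62.0, 65.5 and 63.2 TPM in WT cells under flow and 76.1, 71.7 and 73.4 TPM in static ones. Every knockout library was below every WT library. The change was -0.41 (SE 0.09, adjusted p = 0.00637) in static Ift140KO and -0.66 (SE 0.09, adjusted p = 8.84e-05) in static Dync2h1KO cells, and -0.48 (SE 0.09, adjusted p = 0.00283) and -0.58 (SE 0.09, adjusted p = 0.00027) under flow. Mpc1 was lower in Dync2h1KO cells, at 13.1 to 13.9 TPM static and 14 to 16.8 TPM under flow, against 21.9 to 24.4 TPM and 21.3 to 25.2 TPM in WT cells. Its change there was -0.75 (SE 0.17, adjusted p = 0.00353) static and -0.62 (SE 0.17, adjusted p = 0.012) under flow, and in Ift140KO cells it was 0.11 (adjusted p = 0.697) and 0.02 (adjusted p = 0.955). Pdha1, a subunit of pyruvate dehydrogenase, passed in no comparison.

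Of the 7 glycogen genes, 3 rose and none fell in static Ift140KO cells and 3 rose and 1 fell in static Dync2h1KO cells, where 8.97% of all genes rose and 9.08% fell in the first comparison and 13.5% rose and 14.1% fell in the second. Gys1, the glycogen synthase of muscle and most other tissues, stood at 23.5, 19.9 and 28.6 TPM in Ift140KO cells under flow and at 25.6, 25.1 and 25.2 TPM in static ones. It stood at 21.3, 19.6 and 18.2 TPM in Dync2h1KO cells under flow and at 21.0, 24.9 and 22.5 TPM in static ones, against 15.7, 14 and 9.55 TPM in WT cells under flow and 15.6, 15.8 and 15.6 TPM in static ones. All knockout libraries were above all WT libraries. The change was 0.66 (SE 0.15, adjusted p = 0.00561) in static Ift140KO and 0.51 (SE 0.15, adjusted p = 0.0165) in static Dync2h1KO cells, the second of which had adjusted p = 0.0713 without Dync2h1KO static replicate 2. Under flow the changes were 0.84 (SE 0.15, adjusted p = 0.00113) and 0.58 (SE 0.15, adjusted p = 0.00734).

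Gbe1, the branching enzyme, stood at 37.7, 39.8 and 40.9 TPM in Ift140KO cells under flow and at 35.6, 41.6 and 39.3 TPM in static ones. It stood at 43.9, 42.3 and 52.6 TPM in Dync2h1KO cells under flow and at 40.5, 49.3 and 45.6 TPM in static ones, against 27.5, 27.7 and 27.3 TPM in WT cells under flow and 29.2, 24.9 and 26.0 TPM in static ones. The knockout lines were above WT in every library, by 0.52 (SE 0.10, adjusted p = 0.00132) and 0.73 (SE 0.10, adjusted p = 3.46e-05) in static Ift140KO and Dync2h1KO cells and by 0.51 (SE 0.10, adjusted p = 0.00197) and 0.72 (SE 0.10, adjusted p = 3.67e-05) under flow. Pgm2 stood at 83.0, 83.7 and 83.6 TPM in static Ift140KO cells and at 88.2, 97.6 and 98.5 TPM in static Dync2h1KO cells, against 69.1, 70.4 and 67.8 TPM in static WT cells. It was higher by 0.27 (SE 0.07, adjusted p = 0.0101) in Ift140KO and by 0.45 (SE 0.07, adjusted p = 0.000109) in Dync2h1KO cells. Pygb, which releases glucose from glycogen, was lower in static Dync2h1KO cells by -0.39 (SE 0.09, adjusted p = 0.00569), and its change in static Ift140KO cells was -0.11 (SE 0.09, adjusted p = 0.447). Ugp2, which makes the activated glucose for glycogen, was higher in Dync2h1KO cells under flow by 0.24 (SE 0.08, adjusted p = 0.0318), a call that was lost without any single library of the 2 groups other than Dync2h1KO flow replicate 1 (adjusted p up to 0.109).

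None of the 4 pentose phosphate genes passed between a knockout line and WT in static culture. Under flow Tkt was lower in Ift140KO cells by -0.26 (SE 0.08, adjusted p = 0.0412), which was lost without WT flow replicate 1 or 3 or Ift140KO flow replicate 1 or 3 (adjusted p up to 0.145). Pgd changed by -0.08 (SE 0.13, adjusted p = 0.721) in static Ift140KO and by 0.24 (SE 0.13, adjusted p = 0.188) in static Dync2h1KO cells. Over the comparisons within lines and between lines, 7 of the 40 members passed in none: Gpi1, Tpi1, Eno3, Taldo1, Pdha1, Pdk3 and Pfkfb4. The share of all genes that passed in none was not counted. Of these 7, Tpi1 and Gpi1 passed in static Ift140KO cells when the rows of near-identical copies were added, as given below. The group means of the 7 ranged widely, as Tpi1 (triose phosphate isomerase) averaged 786 TPM and Pfkfb4 3.86 TPM in Ift140KO cells under flow.

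Processed copies of glycolytic genes are common in the mouse genome and bear on these values. For 10 members the files hold rows whose transcripts match the member's at 95% identity or more over at least 200 bases, and those rows carried part of the signal. The member's own row held 20.9% of the summed TPM for Gapdh, which has 88 such copies, 35.4% for Pgk1, 48.1% for Eno1, 50.9% for Pgam1 and 58.2% for Mpc1. It held 65.9% for Tpi1, 78.9% for Gpi1, 79.0% for Ldhb, 81.7% for Pkm and 87.0% for Ldha. How reads were divided between a gene and its copies is uncertain. With copies summed, the called changes kept their direction and 1 lost the threshold, the fall of Pgk1 in Ift140KO cells under flow (-0.23, SE 0.09, adjusted p = 0.103). The sums passed where the row alone had not for Tpi1 (0.35, adjusted p = 0.0101) and Gpi1 (0.25, adjusted p = 0.0431) in static Ift140KO cells, for Gpi1 in Ift140KO cells against WT under flow (0.26, adjusted p = 0.0362), for Ldha under flow in WT cells (0.19, adjusted p = 0.0473) and for Pgam1 under flow in Dync2h1KO cells (-0.22, adjusted p = 0.0377). A further 6 members overlap another gene in the annotation: Gys1, Pfkp, Pgm1, Pfkfb2, Pdha1 and Pfkm, the last with an antisense gene.

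**Figure D4:**
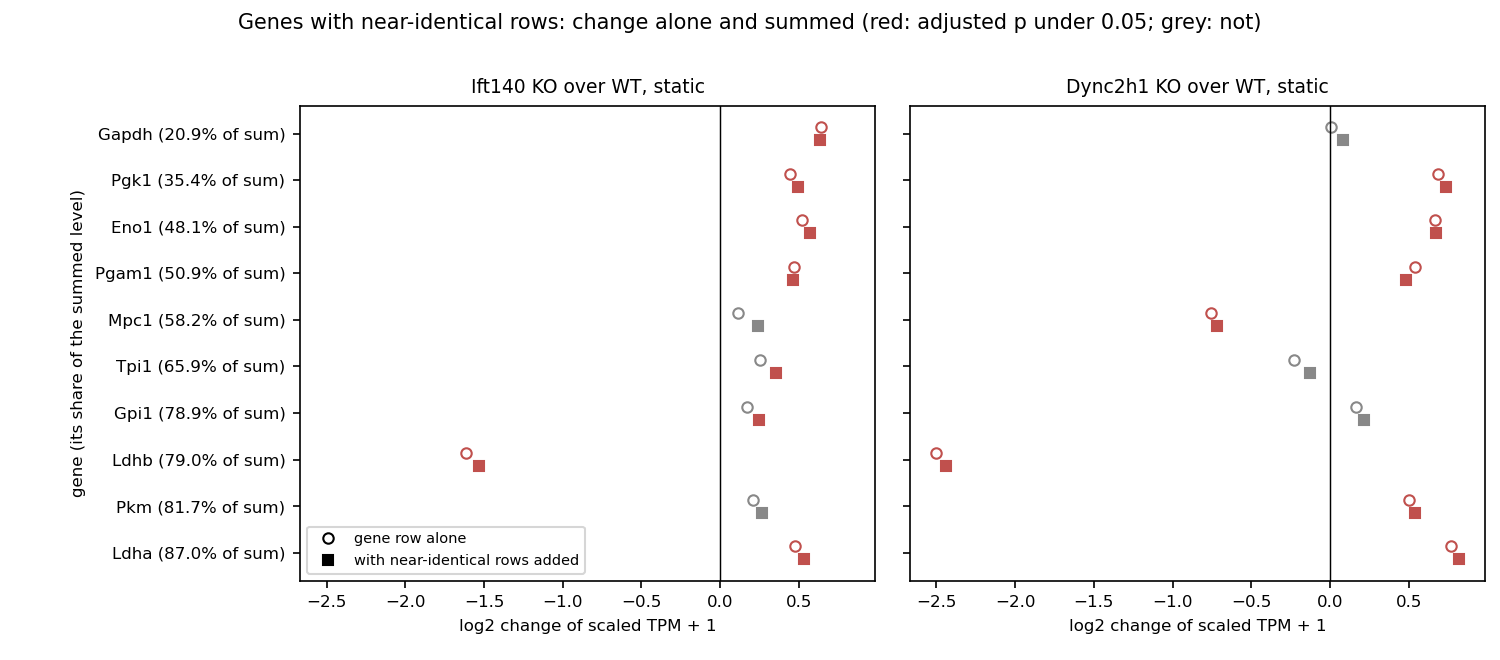
Change (log2 difference of scaled TPM + 1, x axis) of the 10 members with near-identical copies (rows, with the member's share of the sum) in static Ift140KO cells over WT (left) and static Dync2h1KO cells over WT (right), from the member's own row (circles) and from the sum with its copies (squares), red where adjusted p was under 0.05. The 2 marks of a gene lie close together, as for Ldhb in Dync2h1KO cells (-2.50 alone, -2.44 summed), and Tpi1 and Gpi1 pass in Ift140KO cells when summed.

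Of 79 other genes of the same pathways, 55 passed the filter. Under flow 1 of them rose and 8 fell in Ift140KO cells, 3 rose and 8 fell in Dync2h1KO cells, and 3 rose and 7 fell in WT cells. These are 16.4%, 20.0% and 18.2% of the 55, near the 17.5%, 19.0% and 20.5% of all genes that passed. The falls include, in each line, Ppp1r3b, which the filter admitted only through the condition where it is high. Slc37a4, the carrier that brings glucose phosphate into the endoplasmic reticulum, stood at 13.2, 12.5 and 11.5 TPM in Ift140KO cells under flow, against 24.4, 28.2 and 35.2 TPM in static ones. It had 12.1, 15.3 and 12.6 TPM in Dync2h1KO cells under flow, against 33.4, 31.5 and 33.7 TPM static, and 9.51, 13.5 and 12.2 TPM in WT cells under flow, against 33.2, 31.6 and 31.8 TPM static. It fell without overlap in each line, by -1.16 (SE 0.13, adjusted p = 2.19e-05), -1.25 (SE 0.13, adjusted p = 9.45e-06) and -1.40 (SE 0.13, adjusted p = 2.5e-06). Ppp1r3b, which targets a phosphatase to glycogen, stood at 0.0624 to 0.179 TPM in Ift140KO cells under flow, against 0.896 to 1.55 TPM static, at 0.146 to 0.16 TPM in Dync2h1KO cells under flow, against 2.17 to 2.68 TPM static, and at 0.405 to 0.485 TPM in WT cells under flow, against 1.73 to 2.23 TPM static. It passed the filter through static libraries alone, so these levels are given with no test.

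The carriers of lactate at the plasma membrane moved in opposite directions under flow. Slc16a3 (MCT4), known for the export of lactate from glycolytic cells, had 42, 45.6 and 46.5 TPM in Ift140KO cells under flow, against 59.5, 62.8 and 72.7 TPM in static ones. It had 61.5, 56.4 and 55.9 TPM in Dync2h1KO cells under flow, against 85.5, 87.2 and 95.4 TPM static, and 14.6, 14 and 15.2 TPM in WT cells under flow, against 23.2, 23.4 and 23.7 TPM static. Flow lowered it in each line without overlap, by -0.53 (SE 0.08, adjusted p = 0.000259), -0.62 (SE 0.08, adjusted p = 4.99e-05) and -0.65 (SE 0.08, adjusted p = 2.89e-05). Against static WT it was higher by 1.43 (SE 0.08, adjusted p = 8.64e-09) in static Ift140KO and 1.89 (SE 0.08, adjusted p = 1.4e-10) in static Dync2h1KO cells.

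Slc16a1 (MCT1), the more widely expressed carrier, had 108, 113 and 83.0 TPM in Ift140KO cells under flow, against 80.7, 74.2 and 82.2 TPM in static ones. It had 179, 175 and 156 TPM in Dync2h1KO cells under flow, against 115, 115 and 122 TPM static, and 105, 87.7 and 89.9 TPM in WT cells under flow, against 53.9, 54.1 and 55.9 TPM static. Every flow library lay above every static library of its line, narrowly in Ift140KO cells. Flow raised it by 0.34 (SE 0.10, adjusted p = 0.0285), 0.53 (SE 0.10, adjusted p = 0.00174) and 0.77 (SE 0.10, adjusted p = 6.22e-05) in Ift140KO, Dync2h1KO and WT cells. Stbd1, which tethers glycogen to membranes, rose under flow in WT cells (0.56, SE 0.15, adjusted p = 0.0123), while its change was -0.07 (adjusted p = 0.792) in Ift140KO and -0.13 (adjusted p = 0.589) in Dync2h1KO cells. The differences between responses did not pass in limma, at -0.63 (adjusted p = 0.373) for Ift140KO minus WT and -0.69 (adjusted p = 0.206) for Dync2h1KO minus WT. Slc2a8, an intracellular glucose carrier, fell by -0.51 (SE 0.13, adjusted p = 0.0132) in Dync2h1KO and -0.51 (SE 0.13, adjusted p = 0.0132) in WT cells. In static culture 7 of the 55 rose and 8 fell in Ift140KO cells (27.3% in all, against 18.1% of all genes), and 7 rose and 11 fell in Dync2h1KO cells (32.7%, against 27.6%). Among the fallen in Ift140KO cells is Pygl, which the filter admitted only through WT libraries, where it is high. These shares are thus a description only.

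Pygl, the liver glycogen phosphorylase, falls outside the naming rule and was singled out after its values were seen. It stood at 0, 0.218 and 0.376 TPM in Ift140KO cells under flow and at 0.417, 0.646 and 0.248 TPM in static ones. It stood at 0.101, 0 and 0.0747 TPM in Dync2h1KO cells under flow and was listed at 0 in the 3 static ones, against 19.1, 16.9 and 21.3 TPM in WT cells under flow and 18.6, 21.2 and 19.9 TPM in static ones. Every WT library was far above every knockout library. Since it was chosen for this pattern and passed the filter through the WT libraries alone, no test and no fold are given.

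The HIF targets outside glycolysis that were listed, 21 genes and all tested, fell under flow in most cases: none rose and 12 fell in Ift140KO cells, none rose and 14 fell in Dync2h1KO cells, and 1 rose and 12 fell in WT cells. The falls were 57.1%, 66.7% and 57.1% of the list, where 8.27%, 8.15% and 10.3% of all genes fell. Ankrd37 changed by -3.22 (SE 0.10, adjusted p = 1.19e-11) in Ift140KO, -3.94 (SE 0.10, adjusted p = 1.11e-12) in Dync2h1KO and -3.02 (SE 0.10, adjusted p = 3.21e-11) in WT cells. Bnip3, a mitochondrial protein of mitophagy, stood at 42.6, 50 and 34.3 TPM in Ift140KO cells under flow, against 82.0, 84.2 and 87.6 TPM in static ones, and had 43.7, 46.6 and 39.4 TPM in WT cells under flow, against 81.5, 76.1 and 81.6 TPM static. Its flow and static libraries did not overlap, and it changed by -1.0 (SE 0.11, adjusted p = 1.21e-05), -1.0 (SE 0.11, adjusted p = 9.63e-06) and -0.87 (SE 0.11, adjusted p = 3.42e-05) in Ift140KO, Dync2h1KO and WT cells. Narf, Mxi1 (a MYC antagonist), Kdm4b (a histone demethylase) and Ak4 (a mitochondrial adenylate kinase) fell in each line as well, by between -1.92 and -0.78. In static culture 9 of the 21 rose and 3 fell in Ift140KO cells, where 8.97% of all genes rose and 9.08% fell. In static Dync2h1KO cells 9 rose and 3 fell, where 13.5% of all genes rose and 14.1% fell.

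A list of 13 NRF2 genes outside the pentose phosphate pathway, all tested, held Nfe2l2, the gene of NRF2 itself, and Keap1 beside targets. Of these 13, 10 rose and 1 fell under flow in Ift140KO cells. In Dync2h1KO cells 9 rose and none fell, and in WT cells 9 rose and 1 fell. Nfe2l2 is counted among the risen in each line. The rises were 76.9%, 69.2% and 69.2% of the list, where 9.21%, 10.8% and 10.2% of all genes rose. Hmox1, heme oxygenase, stood at 841, 780 and 869 TPM in Ift140KO cells under flow, against 29.6, 26.7 and 24.4 TPM in static ones. It had 832, 777 and 823 TPM in Dync2h1KO cells under flow, against 22.2, 19.2 and 24.9 TPM static, and 737, 646 and 647 TPM in WT cells under flow, against 14.2, 17.3 and 14.2 TPM static. Its levels under flow exceeded all static ones many times over, with changes of 4.90, 5.14 and 5.39 (SE 0.10 each; adjusted p = 5.65e-14, 2.72e-14 and 1.33e-14). Srxn1, Txnrd1, Gclc and Gclm, enzymes of peroxiredoxin, thioredoxin and glutathione chemistry, rose by 1.67 to 2.71 in the 3 lines. Nfe2l2, which encodes NRF2, rose by 1.22 (SE 0.08, adjusted p = 8.99e-08) in Ift140KO, 0.77 (SE 0.08, adjusted p = 1.2e-05) in Dync2h1KO and 0.87 (SE 0.08, adjusted p = 2.88e-06) in WT cells. In static culture 1 rose and 5 fell in Ift140KO cells, where 8.97% of all genes rose and 9.08% fell. In static Dync2h1KO cells 1 rose and 2 fell, where 13.5% of all genes rose and 14.1% fell.

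Of 12 regulators of these genes, 9 passed the filter. Under flow 2 rose and 3 fell in Ift140KO cells, 1 rose and 1 fell in Dync2h1KO cells, and 1 rose and 2 fell in WT cells, where 17.5%, 19.0% and 20.5% of all genes passed. Txnip, a glucose-responsive target of MondoA that restrains glucose uptake, had 102, 93.1 and 82.0 TPM in Ift140KO cells under flow, against 151, 147 and 147 TPM in static ones. It had 47.9, 54.7 and 55.5 TPM in Dync2h1KO cells under flow, against 126, 139 and 131 TPM static, and 114, 129 and 132 TPM in WT cells under flow, against 202, 223 and 232 TPM static. It fell in each line without overlap, by -0.68 (SE 0.09, adjusted p = 6.73e-05), -1.31 (SE 0.09, adjusted p = 5.86e-08) and -0.81 (SE 0.09, adjusted p = 9.71e-06), and was lower than WT in static Ift140KO (-0.56, SE 0.09, adjusted p = 0.000405) and static Dync2h1KO cells (-0.72, SE 0.09, adjusted p = 1.73e-05). Myc, a transcription factor of growth, rose by 1.88 (SE 0.23, adjusted p = 3.64e-05), 1.51 (SE 0.23, adjusted p = 0.000222) and 1.76 (SE 0.23, adjusted p = 5.05e-05) in Ift140KO, Dync2h1KO and WT cells. Hif1a, the oxygen-regulated subunit of HIF, which is controlled mainly as a protein, changed by -0.23 (SE 0.05, adjusted p = 0.00775), -0.15 (SE 0.05, adjusted p = 0.0634) and -0.22 (SE 0.05, adjusted p = 0.00849).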

How the data were processed

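RNA of IMCD3 cells was sequenced in 18 libraries, 3 for each of 6 groups taken from the sample labels. Per the submitters' processing notes, FastQC 0.11.5, Bowtie2 2.1.0 and RSEM 1.2.31 were used, with builds mm10 and GRCm38.p5; the annotation release is not given in the sources used here. The authors deposited TPM per gene name, recognised from gene rows that sum to 1 fixed total in each library, and the row that repeats this total was left out. TPM keeps no depth, so sequencing depth and the precision it gives are unknown, and a value of 0 can be a failed estimate.

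From these, libraries were scaled by a trimmed mean of log ratios (30% of ratios and 5% of abundances trimmed, no weights). The filter asked for 1 TPM or more in 3 or more libraries. limma 3.58.1 in R 4.3.3 was fitted to log2(scaled TPM + 1) with 6 group means, 12 residual degrees of freedom and a mean-variance trend, and p-values were adjusted by Benjamini-Hochberg over 16718 genes. The pseudocount of 1 understates the changes of low genes. With 3 libraries a group, the smallest p of an exact two-sided test is 0.1, and smaller values rest on the model. The method was tested on simulated data.

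Copies of members were found with blastn 2.17.0 among GENCODE vM21 transcripts (GRCm38), and promoters were taken from RefSeq (GRCm38.p6). The members, the gene lists and the tests were chosen with earlier results of these data known. Members that passed in a flow or static knockout comparison are given with values per library or, for some, their range, and from each other list at most 6 genes that passed, by smallest p in the WT flow comparison. Genes that reached 1 TPM only in the condition where they are high are described with no test. Alternatives changed the scaling, the pseudocount, the filter, the libraries in the fit, the use of replicate numbers and the summing of copies.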

Additional observations from a re-analysis of the deposited data

Results flagged for a closer look

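The fall of Eno2 under flow was larger in Ift140KO than in WT cells, by -1.28 on the log2 scale (SE 0.24, adjusted p = 0.0366 in limma with Benjamini-Hochberg adjustment), a test of the difference between the 2 responses. The levels behind it were 1.21, 1.78 and 2.60 TPM in Ift140KO cells under flow and 15.2, 14.5 and 18.6 TPM in static ones, against 4.26, 4.52 and 4.87 TPM in WT cells under flow and 12.6, 12.8 and 13.2 TPM in static ones. All 3 Ift140KO flow libraries lay below all 3 WT flow libraries. The call was lost when any single library of these groups other than Ift140KO flow replicate 3 was left out. It was also lost with no other groups in the fit.

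Pdk4 was flagged for its response to flow, but the filter on low values admitted it only through the 3 Ift140KO flow libraries. The following values are therefore a description with no test. On the log2 scale the response differed by 1.63 for Ift140KO minus WT cells and by -1.63 for Dync2h1KO minus Ift140KO cells. Pdk4 stood at 2.60, 4.72 and 3.96 TPM in Ift140KO cells under flow and at 0.855, 0.450 and 0.283 TPM in static ones, and was listed at 0 in all Dync2h1KO libraries and at no more than 0.0193 TPM in WT libraries. Both differences are counted above among those that passed, but neither is read as a result and no p-value is given. With a pseudocount of 0.1 or with no other groups in the fit neither passed, and the second also failed with the replicate block and without each of 6 single libraries in turn.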

How the results depend on the processing

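Of 103 changes of members that passed, 62 stayed past the threshold in all 9 alternative settings and without any single library where they were still tested, 41 lost it at least once, and 0 changed direction. The number lost was 16 with no scaling, 7 with quantile normalisation, 2 with a pseudocount of 0.1, 3 with a pseudocount of 5, 12 with no filter, 26 when the fit held no other groups, 5 with a replicate block and 1 with copies summed. With a mean of at least 5 TPM as filter, 0 of the 96 still tested were lost. The largest shift of the median over all genes was 0.112 (log2), with no scaling. For flow in WT cells, 8 members passed, against 5 with no filter and 5 to 7 without 1 library, the fewest without WT static replicate 1 or WT flow replicate 3. For flow in Ift140KO cells, 11 passed, against 4 with no other groups in the fit and 7 to 11 without 1 library, the fewest without Ift140KO static replicate 1. For Ift140KO against WT under flow, 17 passed, against 5 with no other groups in the fit and 12 to 20 without 1 library. For the response of Ift140KO minus WT, 2 passed, against 1 with no scaling, 1 with either other pseudocount, 1 with no filter, 1 with the mean filter, 1 with the replicate block, 0 with no other groups in the fit and 0 to 1 without 1 library. For Dync2h1KO minus Ift140KO, 1 passed, against 0 with a pseudocount of 0.1, 0 with the mean filter, 0 with no other groups in the fit, 0 with the replicate block and 0 to 1 without 1 library. The causes were not tested. Of 48 summed levels, 34 moved by less than 1 SD with no scaling, 26 with quantile normalisation and 24 with copies summed.

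Same-numbered libraries correlated by -0.182 to 0.104 in their deviations from group means, so the numbers were not taken to pair libraries. Without counts, the precision of the lowest members, Pdk4, Pdk2 and Pygm, is not known.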
